A study of Mus musculus with 10 samples.

Results

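The oncofetal genes studied here are active in the embryo and fetus, fall silent in most adult tissues and often return in tumours. Followed in fetal mouse liver were 9 of them, Lin28b, Trim71, Igf2bp1, Igf2bp2, Igf2bp3, Hmga1, Hmga2, Gpc3 and Spink1. The members were chosen by symbol, with no measured value in the rule, and each matched 1 Ensembl identifier, which gives 9 of the 55401 genes in the count table. All 9 passed the low-count filter and were among the 14098 genes tested. PolyA RNA-seq was performed on livers of 10 female fetuses at E18.5, shortly before birth, of which 5 were Mir483Pat-KO and 5 were WT littermates. The Mir483Pat-KO fetuses carried a constitutive deletion of the microRNA gene Mir483 on the chromosome from the father, so every cell type of the liver carried it, while the copy from the mother, which is largely silent through imprinting, was intact. The allele was made in C57BL/6N embryonic stem cells of independent clones, from which the selection marker was removed by Cre before mice were derived, and the mice were kept on a C57BL/6J background.

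LIN28B is an RNA-binding protein that blocks the maturation of the let-7 microRNAs, and let-7 in turn represses the mRNAs of Lin28b, Trim71, Hmga2 and the Igf2bp family through sites in their 3′ UTRs. The IGF2BP proteins bind and stabilise mRNAs, including that of Igf2, the host gene of Mir483. The HMGA proteins are AT-hook factors that bend DNA in chromatin, TRIM71 is a ubiquitin ligase that also represses mRNAs, GPC3 is a cell-surface heparan sulphate proteoglycan, and SPINK1 is a secreted trypsin inhibitor. In liver, several of these genes are highest before birth and mark hepatocellular carcinoma.

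The microRNA sequences show what a let-7 or miR-483 site in these genes would pair with. A few let-7 members stand for the family, followed by both arms of miR-483, as given by RefSeq for the mouse. Capitals mark the seed, bases 2 to 8.
mmu-let-7a-5p: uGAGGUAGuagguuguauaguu
mmu-let-7f-5p: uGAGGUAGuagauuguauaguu
mmu-let-7d-5p: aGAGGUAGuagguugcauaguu
mmu-miR-483-3p: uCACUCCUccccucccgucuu
mmu-miR-483-5p: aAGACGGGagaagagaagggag
The let-7 seed is shared by 9 mature mouse sequences, whereas neither miR-483 arm shares it. A 7-mer match is the reverse complement of the seed, CTACCTC for let-7, AGGAGTG for miR-483-3p and CCCGTCT for miR-483-5p, read on the transcribed strand of the longest annotated 3′ UTR. An 8-mer match has an A directly after it.

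Of the 9 genes, 7 held a let-7 match, and Lin28b, Trim71, Igf2bp1 and Hmga2 held 4 each. One site per gene is printed for these 4, with Igf2bp2, Igf2bp3 and Hmga1 for comparison, as 22 bases of the GRCm38 transcript with the match in capitals.
Lin28b, chr10:45381022-45381043, minus strand: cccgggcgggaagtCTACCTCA
Trim71, chr9:114512472-114512493, minus strand: acattgcctaagtcCTACCTCA
Igf2bp1, chr11:95961778-95961799, minus strand: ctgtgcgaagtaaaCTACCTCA
Hmga2, chr10:120364224-120364245, minus strand: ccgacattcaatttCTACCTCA
Igf2bp2, chr16:22059473-22059494, minus strand: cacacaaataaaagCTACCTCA
Igf2bp3, chr6:49086787-49086808, minus strand: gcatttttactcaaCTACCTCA
Hmga1, chr17:27563278-27563299, plus strand: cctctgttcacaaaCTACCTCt
The Hmga1 site lacks the A and is a 7-mer. Trim71 was the gene whose 4 let-7 matches were all 8-mers, against 3 of 4 in Igf2bp1 and 1 of 4 in both Lin28b and Hmga2. A let-7 7-mer was present in 9.02% of the 21021 3′ UTRs searched, and an 8-mer in 3.06%. Long 3′ UTRs hold more matches by length alone. Among 3′ UTRs within 20% of the length of the gene named, as many matches were found in 0.236% for Lin28b (4445 bases), 0.504% for Trim71 (5512 bases), 0.355% for Igf2bp1 (6337 bases) and 0.134% for Hmga2 (3014 bases).

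Gpc3 and Spink1 held no let-7 match, in 3′ UTRs of 441 and 78 bases. Matches to miR-483 itself were few. A miR-483-3p 7-mer lay in Igf2bp1, Igf2bp2 and Hmga2, and a miR-483-5p 7-mer in Igf2bp1 and Trim71. Of these 5 matches, 2 were 8-mers, which are printed because they are the strongest matches to the deleted microRNA in the set.
Hmga2, miR-483-3p, chr10:120363507-120363528, minus strand: tcatacacagcagcAGGAGTGA
Trim71, miR-483-5p, chr9:114508548-114508569, minus strand: tcacggcggtgtagCCCGTCTA
Across all 3′ UTRs, 10.7% held the miR-483-3p 7-mer and 2.68% the miR-483-5p 7-mer. Among 3′ UTRs within 20% of the length of the gene named, the miR-483-3p 7-mer was present in 39% for Igf2bp1, 14.1% for Igf2bp2 and 21.3% for Hmga2, and the miR-483-5p 7-mer in 9.22% for Igf2bp1 and 8.7% for Trim71. Lin28b, Igf2bp3, Hmga1, Gpc3 and Spink1 held no match to either arm. A match is a string of letters and not a shown site of repression.

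**Figure D1:**
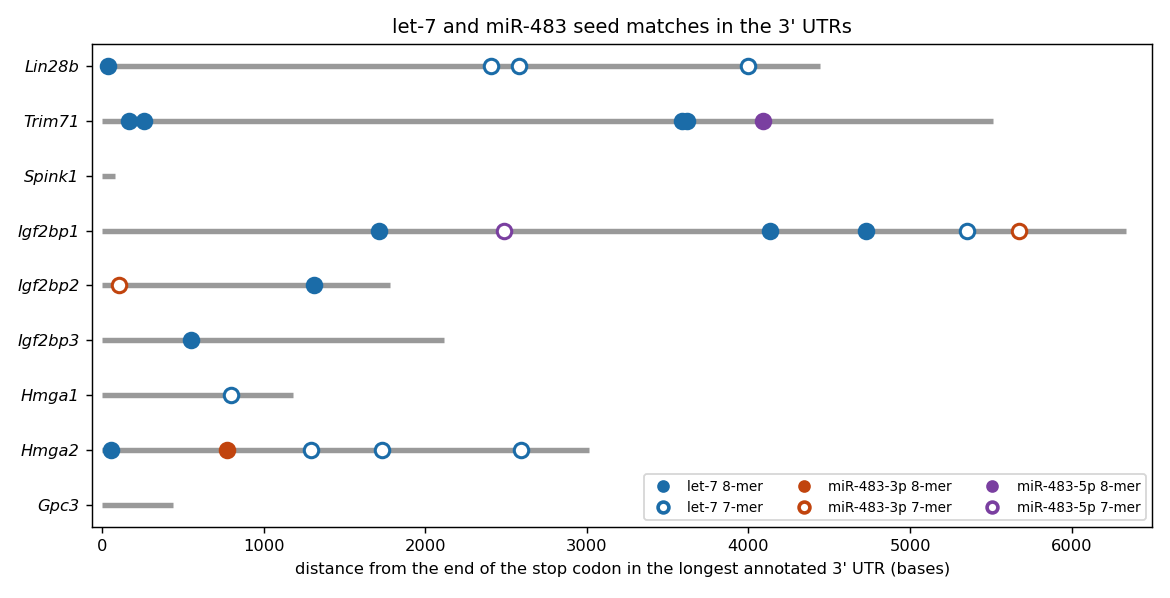
Positions of let-7 (blue), miR-483-3p (orange) and miR-483-5p (purple) seed matches along the longest annotated 3′ UTR of each gene, in bases from the end of the stop codon, with 8-mers filled and 7-mers open. Lin28b, Trim71, Igf2bp1 and Hmga2 each hold 4 let-7 matches, and the short 3′ UTRs of Gpc3 and Spink1 hold none.

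Total counts ranged from 10831350 to 14765880 per library. The row of Mir483, the deleted gene, held 10 to 22 counts in the WT libraries and 0 in all 5 Mir483Pat-KO libraries. Identification numbers in the labels fell into a lower range (4 WT, 2 Mir483Pat-KO) and an upper range (1 WT, 3 Mir483Pat-KO), whose meaning is not stated. Library index numbers separated the genotypes completely and cannot be told apart from them. Levels below are CPM, the reads of a gene scaled to the size of its library, with TMM factors. Differences are log2 fold changes of Mir483Pat-KO over WT from edgeR's quasi-likelihood test, and a gene passed at a Benjamini-Hochberg adjusted p under 0.05 over all genes tested.

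Lin28b, Trim71 and Spink1 were higher in Mir483Pat-KO liver, by 1.41, 1.89 and 1.64 times. These 3 genes passed the test higher by edgeR, DESeq2 and limma-voom, and none of the 9 passed lower by any of them or had an unadjusted p under 0.05 in that direction. In each of the 3 all 5 Mir483Pat-KO libraries lay above all 5 WT libraries. Across all genes tested, 2.43% passed higher, 2.76% passed lower, 3.34% had every Mir483Pat-KO library above every WT library and 3.26% had every one below. Spink1 and Trim71 also exceeded a fold change of 1.5, which 0.355% of all genes did while passing higher, 0.872% while passing lower and 1.23% in either direction. Spink1 fell under that fold without Mir483Pat-KO replicate 4, at a log2 fold change of 0.56. With GC content and length offsets it stood at that fold within rounding, at 0.585. The other 6 genes did not pass. Log2 fold changes were above 0 for 7 of 9 genes, against 50.9% of all genes, with a median of 0.26 (0.0042 for all genes). In whole liver, a change in the number of cells of one type and a change in RNA per cell cannot be told apart.

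**Figure D2:**
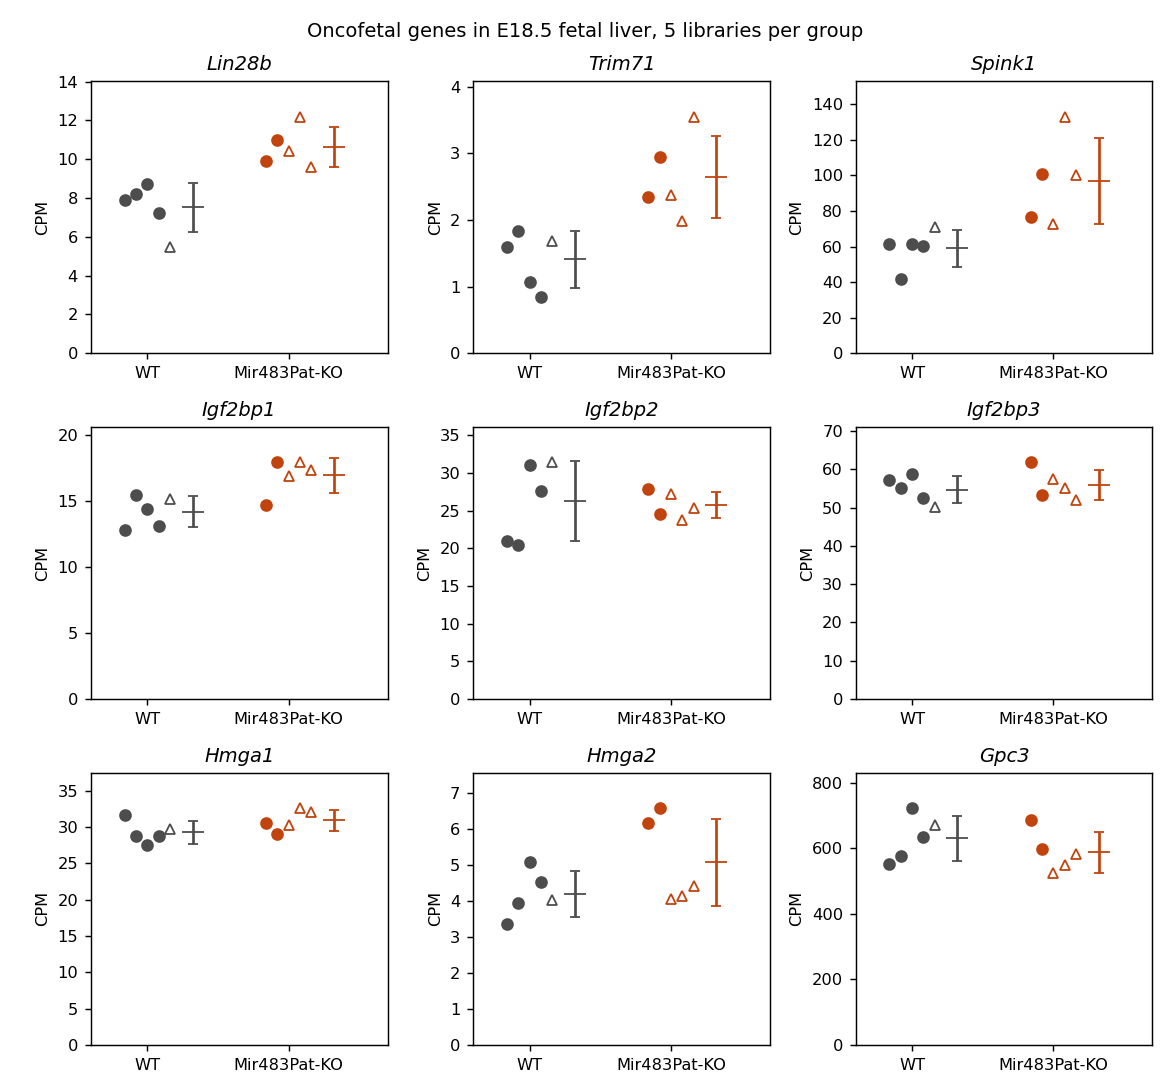
Level of each gene in CPM (y axis, from 0) in the 5 WT (grey) and 5 Mir483Pat-KO (orange) libraries. Filled circles are libraries of the lower and open triangles of the upper identification number range, and bars are the mean ± SD, with no overlap between groups for Lin28b, Trim71 and Spink1.

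Lin28b (ENSMUSG00000063804, chr10:45376620-45486395, minus strand, GRCm38) stood at 7.90, 8.21, 8.73, 7.24 and 5.50 CPM in WT replicates 1 to 5. In Mir483Pat-KO replicates 1 to 5 it stood at 9.92, 11.0, 10.4, 12.2 and 9.61 CPM. The lowest Mir483Pat-KO library exceeded the highest WT library, and WT replicate 5 was the lowest of all. The mean rose from 7.51 ± 1.25 to 10.6 ± 1.02 CPM (SD, 5 libraries each), by 0.50 on the log2 scale (SE 0.13, 95% interval 0.23 to 0.77) or 1.41-fold, at an edgeR adjusted p of 0.0333. These levels rest on 78 to 122 counts in WT and 127 to 146 in Mir483Pat-KO. Within the lower identification number range the groups still did not overlap, at 7.24 to 8.73 CPM in 4 WT and 9.92 to 11.0 CPM in 2 Mir483Pat-KO libraries, with a log2 fold change of 0.38 and an edgeR adjusted p of 0.28. Lin28b did not pass without WT replicate 4 or 5 or Mir483Pat-KO replicate 2, 3 or 4, at edgeR adjusted p from 0.0625 to 0.0959 and log2 fold changes from 0.40 to 0.50. The longest Lin28b transcript has a GC content of 40.6%, and log2 fold changes of all genes fell with GC content (Spearman rho across genes −0.44). With offsets for GC content and length the Lin28b difference was 0.36 and no longer passed (edgeR adjusted p = 0.0591).

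Lin28a, the paralogue that also blocks let-7 maturation, did not pass. Its mean was 5.60 ± 1.16 CPM in WT against 6.05 ± 1.35 CPM in Mir483Pat-KO, which differ by 0.12 on the log2 scale at an edgeR adjusted p of 0.730. Mature let-7 is not measured by polyA libraries. The study also sequenced microRNAs of E18.5 livers and reported let-7f-5p and let-7d-3p lower in Mir483Pat-KO. Those data were not used here. The rows of 11 let-7 precursor genes held 0 counts in every library apart from Mirlet7e, with 3 counts in all.

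Trim71 (ENSMUSG00000079259, chr9:114507133-114564369, minus strand), the ubiquitin ligase and mRNA repressor, had the lowest level per length and the largest fold of the 9 genes. WT replicates 1 to 5 held 1.60, 1.84, 1.07, 0.847 and 1.69 CPM, from 11 to 24 counts. Mir483Pat-KO replicates 1 to 5 held 2.34, 2.94, 2.37, 1.99 and 3.55 CPM, from 22 to 54 counts. No library of one group reached into the range of the other, although the gap between 1.84 and 1.99 CPM was narrow. The mean rose from 1.41 ± 0.428 to 2.64 ± 0.615 CPM (SD, 5 libraries each), with a log2 fold change of 0.92 (SE 0.24, 95% interval 0.40 to 1.43), a fold of 1.89 and an edgeR adjusted p of 0.0407. A level from 3 counts would correspond to 0.197 to 0.271 CPM, depending on the library. In the lower range the levels were 0.847 to 1.84 CPM in WT against 2.34 to 2.94 CPM in Mir483Pat-KO, with a log2 fold change of 0.98 and an edgeR adjusted p of 0.256. With the range as a covariate the edgeR adjusted p was 0.0542. Trim71 passed without WT replicate 1 or 2 or Mir483Pat-KO replicate 1, and without any other single library its edgeR adjusted p was between 0.0565 and 0.0975.

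Spink1 (ENSMUSG00000024503), the secreted trypsin inhibitor, had the lowest adjusted p of the 9 genes and the most counts of the 3 that passed, from 499 to 1519 per library. WT replicates 1 to 5 held 61.2, 41.8, 61.2, 60.1 and 70.7 CPM. Mir483Pat-KO replicates 1 to 5 held 76.6, 101, 72.8, 133 and 100 CPM. WT replicate 2 was the lowest and Mir483Pat-KO replicate 4 the highest, and the groups were separated by the step from 70.7 to 72.8 CPM. The mean rose from 59.0 ± 10.5 to 96.7 ± 24.1 CPM (SD, 5 libraries each), with a log2 fold change of 0.71 (SE 0.15, 95% interval 0.39 to 1.03), a fold of 1.64 and an edgeR adjusted p of 0.0144. Leaving out any single library kept it past the threshold, with adjusted p between 0.00866 and 0.0475 in edgeR. In the lower range the levels were 41.8 to 61.2 CPM in WT against 76.6 to 101 CPM in Mir483Pat-KO, with a log2 fold change of 0.66 and an edgeR adjusted p of 0.117.

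Spink1 is also expressed in the exocrine pancreas, and transcripts of pancreatic enzymes were seen in some libraries. Ctrb1, a chymotrypsinogen chosen here after its values were seen, held 0, 3, 494, 127 and 0 counts in WT replicates 1 to 5. In Mir483Pat-KO replicates 1 to 5 it held 0, 61, 82, 60 and 47 counts. WT replicate 3 was thus the highest, and the other WT libraries apart from replicate 4 were at 0 to 3 counts, whereas Mir483Pat-KO replicates 2 to 5 held 47 to 82. Cpa1, carboxypeptidase A1, ranged from 3 to 99 counts and was also highest in WT replicate 3, while the lipase Pnlip was at 0 in every library. Ins2, an insulin gene of the endocrine pancreas, held 0, 0, 8, 8 and 0 counts in WT replicates 1 to 5. In Mir483Pat-KO replicates 1 to 5 it held 3, 5, 9, 14 and 1 counts, and was highest in replicate 4, as was Spink1 in CPM. Ctrb1 and Cpa1 were not highest in that library, at 60 and 7 counts, against 82 and 24 in Mir483Pat-KO replicate 3. Whether pancreas was dissected with some of the livers is not stated in the sources used here, and the part of pancreatic RNA in the Spink1 difference was not tested. Without WT replicate 3 the Spink1 log2 fold change was 0.71 (edgeR adjusted p = 0.031). That fit keeps Mir483Pat-KO replicates 2 to 5 and so cannot show the part of pancreatic RNA in the difference.

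The RNA-binding Igf2bp family did not pass. Igf2bp1 (ENSMUSG00000013415, chr11:95957163-96005940, minus strand) came nearest, at 12.8, 15.4, 14.4, 13.1 and 15.1 CPM in WT replicates 1 to 5. In Mir483Pat-KO replicates 1 to 5 it was at 14.7, 17.9, 16.9, 17.9 and 17.3 CPM. In all, 4 of the 5 Mir483Pat-KO libraries lay above all WT libraries, and replicate 1 lay inside the WT range. The log2 fold change was 0.26 (95% interval 0.064 to 0.45, edgeR adjusted p = 0.110). Counting Igf2bp1, 4 of the 9 genes had an unadjusted p under 0.05, all higher, beside 11.5% of all genes tested that were higher at that level, 10.7% that were lower and 22.2% in either direction.

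Igf2bp2 (ENSMUSG00000033581, chr16:22059009-22163299, minus strand) averaged 26.3 ± 5.36 CPM in WT against 25.7 ± 1.73 CPM in Mir483Pat-KO. WT replicates 1 and 2, of which the lower was at 20.4 CPM, lay below all Mir483Pat-KO libraries, whereas WT replicates 3 and 5, at 31.1 and 31.4 CPM, lay above them all. Its log2 fold change was −0.03 (95% interval −0.28 to 0.21, edgeR adjusted p = 0.897). Igf2bp3 (ENSMUSG00000029814, chr6:49085223-49214957, minus strand), the family member with the highest level per length, averaged 54.7 ± 3.48 CPM in WT against 55.9 ± 3.90 CPM in Mir483Pat-KO. Its log2 fold change was 0.03 (95% interval −0.12 to 0.18, edgeR adjusted p = 0.834). The intervals of both genes leave out a change of 1.5-fold in either direction. Malsu1 on the opposite strand covers 18.7% of the exonic bases of Igf2bp3, and the strand setting of the counting is not given in the sources used here.

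Among the chromatin factors, Hmga1 (ENSMUSG00000046711, chr17:27556497-27563674, plus strand) was the steadiest of the 9 genes in both groups. It averaged 29.3 ± 1.57 CPM in WT against 30.9 ± 1.43 CPM in Mir483Pat-KO, with a log2 fold change of 0.08 (95% interval −0.071 to 0.23, edgeR adjusted p = 0.551). Its near-identical copy Hmga1b held 3 to 19 counts per library, so the split of reads between them is uncertain. Hmga2 (ENSMUSG00000056758, chr10:120361275-120476469, minus strand) was at 3.37, 3.94, 5.08, 4.54 and 4.02 CPM in WT replicates 1 to 5. In Mir483Pat-KO replicates 1 to 5 it was at 6.17, 6.58, 4.06, 4.15 and 4.41 CPM. The first 2 of these, both of the lower range, exceeded all WT libraries, and the other 3, all of the upper range, lay inside the WT range. The log2 fold change was 0.27 (95% interval −0.10 to 0.64, edgeR adjusted p = 0.388), and within the lower range 0.58 (edgeR adjusted p = 0.249).

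Gpc3 (ENSMUSG00000055653, chrX:52272426-52613950, minus strand), the heparan sulphate proteoglycan, had the highest level per length of the 9 genes. It was at 553, 575, 722, 633 and 670 CPM in WT replicates 1 to 5 and at 687, 598, 523, 550 and 582 CPM in Mir483Pat-KO replicates 1 to 5. Mir483Pat-KO replicates 3 and 4 were below all WT libraries, and the groups otherwise overlapped. The log2 fold change was −0.10 (95% interval −0.29 to 0.086, edgeR adjusted p = 0.537).

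**Figure D3:**
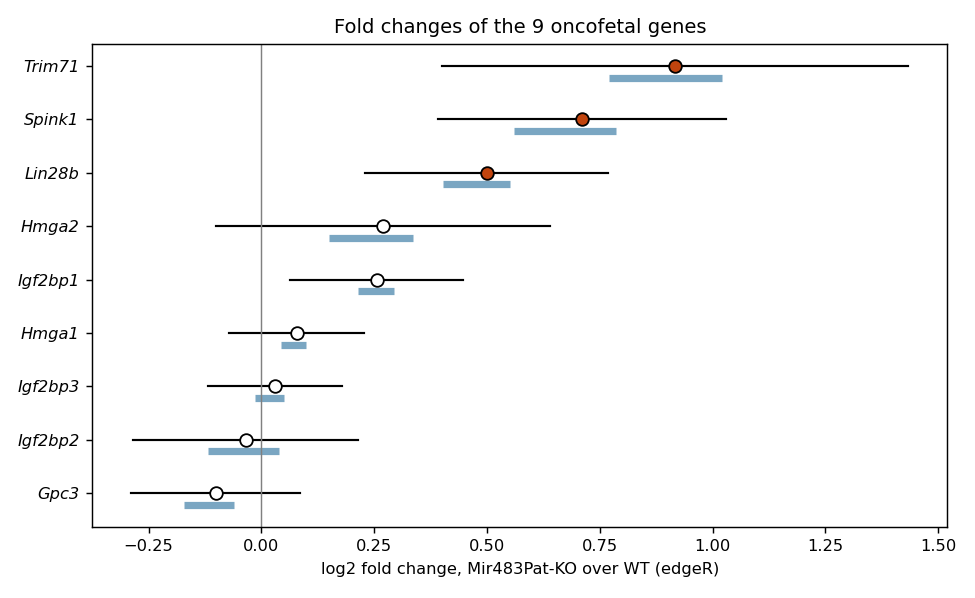
Log2 fold change of Mir483Pat-KO over WT (x axis) for each of the 9 genes, with the 95% interval as a black line and the range over leaving out each library in turn as a blue bar. Filled points passed at an adjusted p under 0.05, and the blue bars of Igf2bp2 and Igf2bp3 cross 0.

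Levels were compared between genes per kb of exonic length. In WT liver Gpc3 stood at 234 ± 25.7 CPM per kb and Spink1 at 80.9 ± 14.4 CPM per kb (SD, n = 5). Hmga1 followed at 13.8, Igf2bp3 at 6.71, Igf2bp2 at 3.55 and Igf2bp1 at 1.46 CPM per kb. The 3 lowest were Lin28b at 0.829 ± 0.138, Hmga2 at 0.619 ± 0.0955 and Trim71 at 0.151 ± 0.0459 CPM per kb. The ranges of the WT libraries did not overlap between neighbours in this order, except for Lin28b (0.606 to 0.963) and Hmga2 (0.498 to 0.750). In Mir483Pat-KO the order was the same, and Lin28b (1.06 to 1.34) and Hmga2 (0.599 to 0.972) no longer overlapped. The lowest and the highest gene thus differed by more than 3 orders of magnitude in WT.

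**Figure D4:**
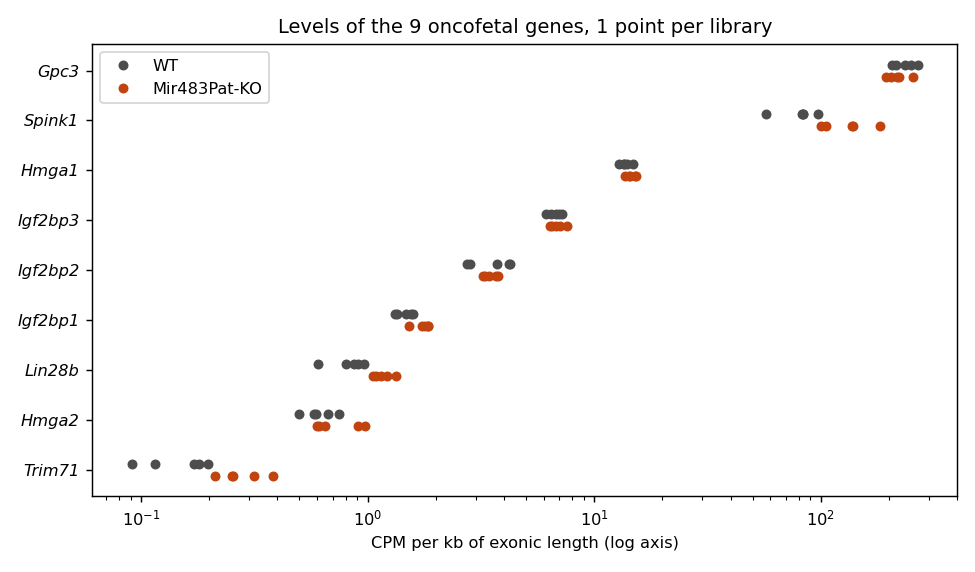
Level of each gene in CPM per kb of exonic length (logarithmic x axis), with 1 point per library for WT (grey) and Mir483Pat-KO (orange). The WT ranges of neighbouring genes overlap only for Lin28b and Hmga2.

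Within groups, few of the 9 genes varied together. After removal of the group means, Pearson correlations of log2 CPM over the 10 libraries were highest for Hmga2 with Gpc3 (0.79) and Igf2bp2 with Gpc3 (0.73), and lowest for Hmga1 with Hmga2 (−0.77). The 3 genes that passed were not among these pairs: Lin28b and Trim71 correlated at −0.33, Lin28b and Spink1 at −0.0692, and Trim71 and Spink1 at −0.19. The libraries share depth and composition, and no test was made. The tested genes most like each member on the same measure were Eid1, Pcgf3 and Cul2 for Lin28b (0.96 each), Mamdc4 (0.93), Rsph3b (0.91) and Nop9 (0.90) for Trim71, and Rnf113a2 (0.97), Eef1g (0.96) and Ndufa3 (0.96) for Spink1. For the Igf2bp family they were Lrig1, Rapgefl1 and Ldhd (Igf2bp1, 0.89 to 0.97), Inppl1, Spint2 and Ralgds (Igf2bp2, 0.93 to 0.95) and Pex13, Klkb1 and Slc25a13 (Igf2bp3, 0.94 to 0.97). For the remaining genes they were Mrto4, Pias3 and Btk (Hmga1, 0.94 to 0.96), Steap4, Arhgap35 and Tbx20 (Hmga2, 0.93 to 0.96) and Igsf1, Kif21a and Pcyox1 (Gpc3, 0.94 to 0.97).

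Lin28b and Trim71 were set beside the other genes with let-7 matches. Of the 1368 genes tested with at least 1 let-7 7-mer, 35 passed higher and 35 lower (2.56% each, beside 2.43% and 2.76% of all genes), with a median log2 fold change of 0.00073. Of the 173 with at least 2 matches 5 passed higher and 4 lower, and of the 26 with at least 3 matches 2 passed higher and none lower. Of the 12 with 4 or more, 2 passed higher and none lower, and these 2 were Lin28b and Trim71. Hmga2 and Igf2bp1 were also among the 12. None of the other 8 passed, and their log2 fold changes ran from −0.22 (Nudt12) to 0.20 (Zbtb37). Among them Nr6a1, with 8 matches, had 0.06 (edgeR adjusted p = 0.867), Mcf2l, with 7 that were all 8-mers, had −0.13 (edgeR adjusted p = 0.748), and Trim6, with 6, had −0.06 (edgeR adjusted p = 0.899).

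Lists of genes around the members were counted in the same fit. Over 10 lists, 8 of 143 distinct genes passed, 6 higher and 2 lower, which is 5.59% beside 5.19% of all genes. With each library left out in turn, Cdkn1a and Trim25 passed in 10 of 10 fits, Cd24a and Rbl1 in 9, Btrc in 3, and Tut4, Pabpc1 and Peg10 in 2. With GC content and length offsets, Tut4, Pabpc1, Rbl1 and Btrc did not pass, at edgeR adjusted p of 0.0548, 0.0611, 0.054 and 0.403. Their log2 fold changes in that fit were 0.255, 0.217, 0.26 and 0.154. In the list of let-7 processing and turnover, 1 of 20 passed higher and 1 lower (median log2 fold change 0.02), with 4 higher and 1 lower at an unadjusted p under 0.05. Tut4, the uridylyltransferase that LIN28A recruits to the let-7 precursor, rose from 78.4 ± 10.4 to 100 ± 11.9 CPM (log2 fold change 0.35, edgeR adjusted p = 0.0448). Trim25, a cofactor of that step, fell from 142 ± 5.99 to 109 ± 5.93 CPM (log2 fold change −0.38, edgeR adjusted p = 0.00416). None of 28 other let-7 targets passed by edgeR (median 0.03), 1 did by DESeq2 and none by limma-voom, and 5 had an unadjusted p under 0.05, 3 of them higher. Among them Cpeb3, which binds mRNA 3′ ends, had the smallest p, at 0.33 (edgeR adjusted p = 0.0547).

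Among proteins that share ribonucleoprotein particles with the IGF2BPs, 1 of 12 passed, Pabpc1, the poly(A)-binding protein, at 0.27 (edgeR adjusted p = 0.0401), and 5 were higher and 0 lower at an unadjusted p under 0.05. The sum of these partners separated the groups, at 2200 to 2520 CPM in WT against 2580 to 2740 CPM in Mir483Pat-KO. Among mRNAs bound by IGF2BPs, 1 of 9 passed, Btrc, the substrate receptor of a ubiquitin ligase, with 0.31 (edgeR adjusted p = 0.0467), and 2 were higher and 1 lower at an unadjusted p under 0.05. Btrc passed by DESeq2 but not by limma-voom (adjusted p = 0.0502) or with the identification number range as a covariate (edgeR adjusted p = 0.087). Igf2 itself had −0.20 (edgeR adjusted p = 0.205) and H19 0.02 (edgeR adjusted p = 0.910). The medians of these lists were 0.13 and 0.02, beside 0.0042 for all genes. None of 11 other HMG proteins passed by edgeR, DESeq2 or limma-voom (median 0.17), although 4 were higher at an unadjusted p under 0.05 by edgeR, and Hmgb3 had the smallest p, with 0.26 (edgeR adjusted p = 0.0986).

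In the list of TRIM71 relatives and targets, 1 of 12 passed higher and 1 lower (median 0.02), with 2 higher and 3 lower at an unadjusted p under 0.05, and DESeq2 passed 2 lower. Cdkn1a, the cell cycle inhibitor p21 and a known mRNA target of TRIM71, was at 44.1, 50.6, 46.1, 50.7 and 49.0 CPM in WT replicates 1 to 5. In Mir483Pat-KO replicates 1 to 5 it was at 33.1, 27.4, 28.1, 24.5 and 25.5 CPM. No Mir483Pat-KO library reached the WT range, with a log2 fold change of −0.80 (SE 0.084, edgeR adjusted p = 0.000353), and it also passed within the lower range (−0.67, edgeR adjusted p = 0.0436). Rbl1, a relative of the retinoblastoma protein that was also listed as a TRIM71 target, went the other way. It rose by 0.37 on the log2 scale (edgeR adjusted p = 0.0150). The part of Trim71 in either difference was not tested.

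None of 19 glypican, syndecan and heparan sulphate genes passed by any of the 3 tools (median −0.07), and 4 were lower at an unadjusted p under 0.05 by edgeR, with Sdc1 at −0.22 (edgeR adjusted p = 0.0976). None of 8 tested serine protease inhibitors and trypsin relatives passed by any of the 3 (median −0.14), and 2 were lower at an unadjusted p under 0.05, with Hpn at −0.18 (edgeR adjusted p = 0.127). Among 20 other oncofetal liver genes 2 passed higher (median 0.00090): Cd24a, a surface glycoprotein of progenitors, with 0.43 (edgeR adjusted p = 0.0161), and Peg10, an imprinted retrotransposon-derived gene, with 0.35 (edgeR adjusted p = 0.0416). Afp, the classical oncofetal protein, had 0.12 (edgeR adjusted p = 0.454), and 2 of the 20 were higher and 3 lower at an unadjusted p under 0.05. None of 7 factors that control fetal liver genes after birth passed by edgeR (median 0.11), 1 did by DESeq2, and 2 were higher and 2 lower at an unadjusted p under 0.05, with Zhx3 at −0.30 (edgeR adjusted p = 0.0771).

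**Figure D5:**
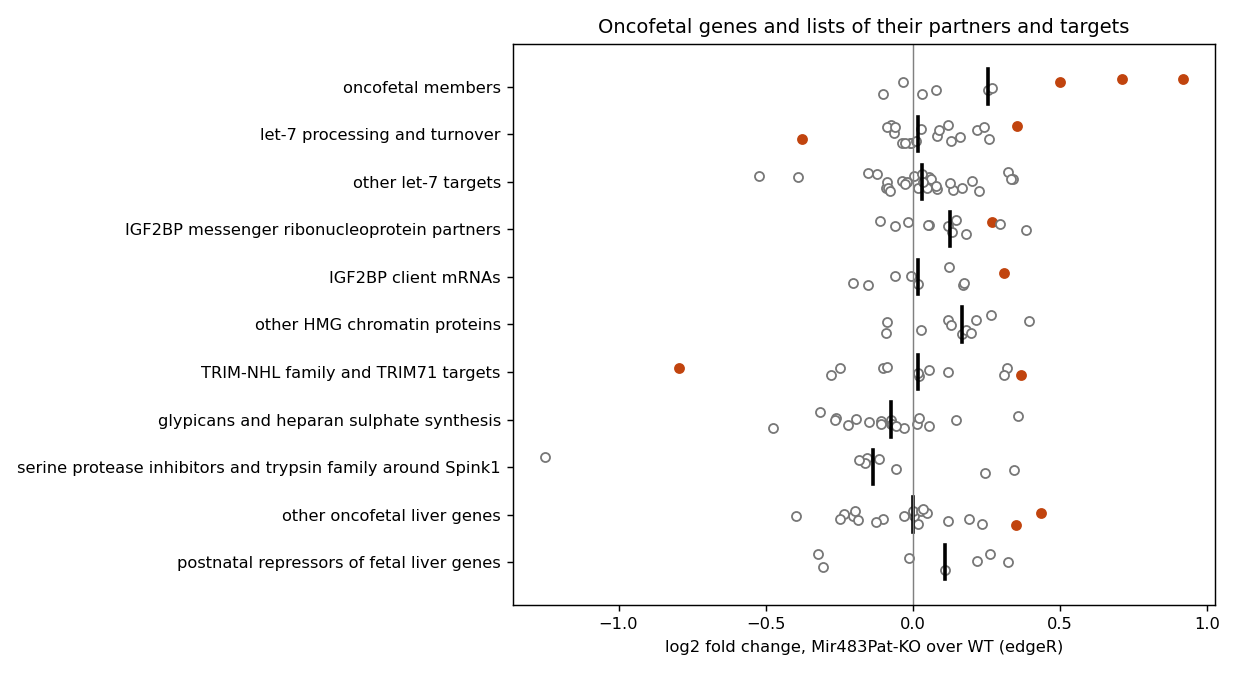
Log2 fold change of Mir483Pat-KO over WT (x axis) for the tested members of each list, with 1 point per gene, filled where the gene passed at an adjusted p under 0.05, and a black bar at the list's median. The 9 oncofetal members have a median of 0.26, and the 10 lists around them have medians between −0.14 and 0.17.

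The cell types of the liver were read from their markers, and the libraries held the hepatocyte, erythroid, endothelial and macrophage markers of fetal liver. Summed erythroid markers stood at 17600 to 22500 CPM in WT against 20600 to 28400 CPM in Mir483Pat-KO, with 2 of 13 passing higher (Hbb-bs and Rhag) and 10 of 13 higher at an unadjusted p under 0.05, as 11.5% of all genes were. DESeq2 passed 4 of the 13 higher and limma-voom 2, and within the lower range alone 2 were higher and 1 lower at an unadjusted p under 0.05 by edgeR. The upper range held the 3 highest Mir483Pat-KO sums. Summed proliferation markers stood at 2710 to 3140 CPM in WT against 3200 to 3520 CPM in Mir483Pat-KO. This sum separated the groups, as did that of the IGF2BP partners above. Of the 14 proliferation markers, 3 passed higher (Bub1, Ccna2 and Ccnb1), beside 2.43% of all genes. At an unadjusted p under 0.05, 10 of the 14 were higher, beside 11.5% of all genes. DESeq2 passed 5 of the 14 higher and limma-voom 4, and within the lower range alone 4 were higher and 1 lower at an unadjusted p under 0.05. Hepatocyte markers summed to 224000 to 251000 CPM in WT against 201000 to 231000 CPM in Mir483Pat-KO, with 3 of 12 passing lower (Asgr1, Cps1 and Apoa1) and 5 of 12 lower at an unadjusted p under 0.05, as 10.7% of all genes were. DESeq2 and limma-voom each passed 4 of the 12 lower, and 5 were lower at an unadjusted p under 0.05 within the lower range. The erythroid and hepatocyte sums overlapped between the groups, with 3 of 5 Mir483Pat-KO libraries above and 4 of 5 below all WT libraries. The part of these cell types and of proliferation in the results for Lin28b, Trim71 and Spink1 was not tested.

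The sums of the other marker lists also overlapped between the groups. Haematopoietic progenitor markers summed to 143 to 167 CPM in WT against 143 to 160 CPM in Mir483Pat-KO, with none of 10 passing and 1 lower at an unadjusted p under 0.05 (Procr, log2 fold change −0.54, edgeR adjusted p = 0.208). B-lymphoid (87.3 to 114 against 94.8 to 117 CPM) and stellate and mesenchymal markers (620 to 1130 against 563 to 866 CPM) had none passing by edgeR either, with 0 and 5 lower at an unadjusted p under 0.05, and 2 of the latter passed by DESeq2 and 1 by limma-voom. The smallest p in these lists belonged to Igll1 (0.17, edgeR adjusted p = 0.455) and Pdgfrb (−0.48, edgeR adjusted p = 0.0511). Megakaryocyte (287 to 529 against 281 to 409 CPM), myeloid (2070 to 2820 against 2400 to 2760 CPM) and endothelial markers (466 to 521 against 406 to 495 CPM) had 1 gene each passing lower (Vwf, Clec4f and Tie1). Of 10 myeloid markers, 2 were higher and 1 lower at an unadjusted p under 0.05, and of 7 megakaryocyte markers 0 were higher and 1 lower. For endothelial markers, 4 of 5 Mir483Pat-KO sums lay below all WT sums, and 2 of 8 genes were lower at an unadjusted p under 0.05. Biliary and pancreatic markers summed to 42.1 to 98.5 CPM in WT against 58.0 to 88.1 CPM in Mir483Pat-KO, with none of 6 passing by any tool or at an unadjusted p under 0.05, and the smallest p for Krt19 (−0.40, edgeR adjusted p = 0.272).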

How the data were processed

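The authors made stranded polyA libraries, aligned the reads with STAR to GRCm38 and deposited raw counts for each Ensembl gene, not normalized. How strand and reads with several positions were handled in the counting is not given in the sources used here. Counts summed to 10831350 to 14765880 per library, and 55141 of the 55401 genes matched a symbol. Groups came from the labels, which call the 10 fetuses biological replicates.

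Differences between the groups were tested with edgeR 4.0.16 under R 4.3.3 (filterByExpr defaults, TMM scaling, quasi-likelihood F-test on genotype, Benjamini-Hochberg adjustment over 14098 genes). The common biological coefficient of variation was 0.111. A fold change of 1.5 was used beside the adjusted p threshold of 0.05. Counting floors of 3 counts cover counting error only. The procedure was tested on simulated data. Exons, 3′ UTRs and their sequences came from GENCODE M21, and microRNAs from RefSeq. Alternatives changed the scaling (RLE), the tool (DESeq2 1.42.0, limma-voom 3.58.1, edgeR's robust fit), the filter (none, or a minimum of 10 counts in each library), the model (replicate number as block, or identification number range as covariate) and the libraries (the lower range alone, or all but 1), added offsets for GC content and length, or took 8-mers in place of 7-mers.

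The members, the gene lists and the tests were chosen with earlier results of these data known. All 9 members were named. Of each list, the genes that passed were named (the 4 with the smallest p where more passed), otherwise the 1 with the smallest p, with Mir483, Igf2 and H19 whatever their result. Genes most like a member were the 3 with the highest correlation, among genes whose mean log2 CPM reached 1 (prior count 2). Values of Lin28a, Afp, Zbtb37, Nr6a1, Mcf2l, Trim6, Nudt12, Ctrb1, Cpa1, Pnlip and Ins2, counts at an unadjusted p, and the other tools and models for the list genes, were added after they were seen. No position or sequence of Spink1 is given. An item withheld for evaluation was left out of the erythroid marker list and is not reported here. The plots were made in Python 3.11.15 and matplotlib 3.10.9.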

Additional observations from a re-analysis of the deposited data

Results flagged for a closer look

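In 2 genes, a single library stood apart from the other 4 of its group by Dixon's criterion for 5 samples (critical value 0.71), among 74 groups of 37 named genes, of which chance alone would give about 5%. Tut4 was at 121 CPM in Mir483Pat-KO replicate 3, against 91.4 to 99.2 CPM in the other 4 libraries. Peg10 was at 38.5 CPM in WT replicate 3, against 30.1 to 31.9 CPM. Neither is among the 9 oncofetal genes. The 37 are the members and the list genes named by the rule. Genes added later were not examined, among them Ctrb1 and Cpa1, both highest in WT replicate 3.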

How the results depend on the processing

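Spink1 passed in 19 of 20 alternatives, Lin28b in 13 and Trim71 in 11, all with a difference above 0, with edgeR, DESeq2 or limma adjusted p from 1.35e-08 to 0.117, 0.00995 to 0.28 and 0.019 to 0.256. In the lower identification number range alone (4 WT, 2 Mir483Pat-KO, so fewer libraries), 23 genes passed in place of 731, 2 were called higher in place of 50 and 19 lower in place of 123, 0 members passed by edgeR (4 had an unadjusted p under 0.05, all higher) and 1 of the 8 list genes, and the log2 fold changes were 0.38 for Lin28b, 0.98 for Trim71, 0.66 for Spink1, 0.0579 for Igf2bp2 and 0.0461 for Gpc3, the last 2 reversed. Lin28b had 0.36 with GC content and length offsets and Trim71 0.87 with the range as a covariate. Counts passed were 1127 by DESeq2, 1258 without a filter, 1338 with the replicate block and 1189 with the covariate. Called higher were 99 without a filter, 107 with the covariate and 32 with GC offsets, and called lower 222 without a filter. The cause was not tested. With libraries left out in turn, 279 to 863 genes passed, 17 to 66 were called higher and 80 to 171 lower, and 1 to 3 members passed. It was 1 without WT replicate 4 or 5 or Mir483Pat-KO replicate 2, 3 or 4, and 2 without WT replicate 3 or Mir483Pat-KO replicate 5. Log2 fold changes ranged from 0.40 to 0.55 for Lin28b, 0.77 to 1.02 for Trim71, 0.56 to 0.79 for Spink1, −0.12 to 0.0381 for Igf2bp2 (reversed at 0.0194 and 0.0381 without WT replicate 3 or 5) and −0.015 to 0.0499 for Igf2bp3 (reversed without Mir483Pat-KO replicate 1). With 8-mers, 1 member held a miR-483-3p match in place of 3 and 1 a miR-483-5p match in place of 2.

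Same-numbered libraries of the 2 groups correlated at 0.0871 on average after removal of the group means (−0.0496 to 0.261), against −0.0217 for other pairs, and 2 of 5 correlated best with their own number, so they were treated as unpaired. With the replicate block, Lin28b had 0.51 (edgeR adjusted p = 0.0185), Trim71 0.92 (0.019) and Spink1 0.70 (0.00613).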
